A study of Mus musculus with 7 samples.

Results

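Chemokines and their receptors are described here in skin papillomas of mice with and without induced expression of *Nanog*, a transcription factor of pluripotent cells. The 60 genes were chosen by name alone, as every gene symbol of the *Ccl*, *Cxcl*, *Ccr* and *Cxcr* series together with *Cx3cl1*, *Cx3cr1*, *Xcl1*, *Xcr1*, *Pf4* and *Ppbp*, out of 23284 symbols in the data. They comprised 41 ligands and 19 receptors. RNA-seq had been done on papillomas from 4 CTR and 3 TG mice of the C57Bl/6 strain, with 1 library per mouse. The *tetO-Nanog* allele was present in both groups, a *Nanog* cDNA placed behind a doxycycline-responsive promoter, and both drank doxycycline at 2 mg/ml during the whole tumor protocol. In that protocol a single application of the mutagen DMBA on dorsal skin was followed by repeated TPA, a tumor promoter that also inflames the skin, in age-matched adult mice. Only TG mice also carried *K5-rtTA*, which places the transactivator under the bovine keratin 5 promoter and so directs induction to the basal layer of stratified epithelia, not to stromal or immune cells. The CTR mice controlled for the drug and the allele but not for the transactivator. Papillomas had been taken either when the protocol ended or earlier, at a humane endpoint, and which of these applied to each library is not given in the sources used here.

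Chemokines are small secreted proteins that guide leukocytes along concentration gradients, and their receptors are G-protein-coupled receptors on the cells that respond. Several CXC ligands recruit neutrophils through CXCR2, many CC ligands recruit monocytes through CCR1 and CCR2, and others direct lymphocytes. In skin, keratinocytes, fibroblasts, macrophages and neutrophils can all produce chemokines, and TPA is a classical trigger of such production.

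The values are FPKM, the fragments of a gene per kilobase of its transcript and scaled to the mapped fragments of the library, so levels can be compared between genes. *Nanog* itself lay between 36.9 and 66.9 FPKM in TG and between 2.70 and 12.7 FPKM in CTR papillomas, with no overlap between the groups. The widths of the Cufflinks intervals implied between 10074859 and 15710562 reads on genes per library, with CTR 3 and TG 1 at the upper end and the other 5 libraries at 10671027 or fewer. TG 3 stood apart from every other library. Its median FPKM was 1.04 against 0.481 to 0.596 elsewhere, and its correlations with the other libraries across genes were 0.903 to 0.937, against 0.945 to 0.977 among those. Markers of other tissues were also high in TG 3. The summed level of 4 skeletal muscle genes was 438 FPKM there and at most 3.94 FPKM elsewhere, and that of 5 fibroblast genes was 269 FPKM against 22.2 to 35.1 FPKM. The 5 keratinocyte genes, which mark the labelled tissue, summed to between 6856 and 17420 FPKM in all 7 papillomas, and TG 3 had the lowest sum. These genes were not alike in TG 3. *Krt14* (4717 FPKM), *Krt10* (181 FPKM) and *Krt1* (133 FPKM) were at their lowest there. *Krt5* (1783 FPKM) was at its highest, and *Trp63* (42.1 FPKM) lay inside the range of the other papillomas. Differences of the members described below are therefore given with and without TG 3.

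The neutrophil-attracting ligands lie close together in the genome, in a cluster that also holds *Pf4*, which was not put in that class. *Cxcl5*, *Ppbp*, *Pf4*, *Cxcl3*, *Cxcl15*, *Cxcl1* and *Cxcl2* fall within 146.6 kb of chromosome 5, from 90759299 to 90905938 (GRCm38). The promoters of 3 of them are shown because they carry the κB motif, the consensus bound by NF-κB, as an identical stretch, and that of the receptor *Ccr3* because its transcript was among those with the smallest p-values of the comparison. Each line gives RefSeq sequence of GRCm38.p6 on the plus strand, at chr5:90891139-90891218, chr5:90903767-90903846, chr5:90785993-90786072 and chr9:124021757-124021836 in this order, and capitals mark the κB motif.
Cxcl1: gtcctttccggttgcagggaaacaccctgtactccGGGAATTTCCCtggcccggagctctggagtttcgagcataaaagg
Cxcl2: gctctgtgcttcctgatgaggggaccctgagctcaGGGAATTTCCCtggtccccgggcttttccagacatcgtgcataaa
Cxcl3: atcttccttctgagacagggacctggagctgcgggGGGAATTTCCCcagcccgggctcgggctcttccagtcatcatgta
Ccr3: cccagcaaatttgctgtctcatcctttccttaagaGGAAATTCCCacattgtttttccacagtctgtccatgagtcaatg

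The motif began 71 bases before the annotated start of *Cxcl1*, 97 before that of *Cxcl2* and 73 before that of *Cxcl3*. In these 3 genes a match on the plus strand overlapped one on the minus strand, shifted by 1 base, whereas *Ccr3* had a match on the minus strand alone, beginning 179 bases before its start. Promoter windows from 250 bases before to 50 after the start were held for 44 members, with 51 windows in all and both strands searched. The motif was present in 9 of these windows (17.6%), against 1478 of 32817 windows of the same length over all genes (4.50%). The other members with a match were *Cxcl10*, *Ccl20*, *Ccl9*, *Ccr6* and *Ccl27a*. Of the other genes in the cluster of *Cxcl1*, *Cxcl2* and *Cxcl3*, the windows of *Ppbp*, *Pf4* and *Cxcl15* held no match. No window was held for *Cxcl5*. A match describes the letters only and is not evidence of binding in these papillomas.

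The question put to the data was whether chemokine transcripts differed between TG and CTR papillomas. Of the 60 members, 31 had a mean of at least 0.5 FPKM and were tested (23 ligands and 8 receptors), 28 were below that minimum, and *Ccl27a* was left out because Cufflinks had failed to estimate it in 4 of the 7 papillomas. limma on log2(FPKM + 0.5) with Benjamini-Hochberg adjustment over the 12299 tested genes called 0 members higher and 0 lower in TG papillomas once p was adjusted (threshold 0.05), where the background was 0% of all tested genes in either direction. Before adjustment, 5 of the 31 members (16.1%) were higher with a p under 0.05, against 4.86% of all tested genes. These were *Ccr3*, *Cxcl14*, *Cxcr2*, *Cxcr7* and *Cxcl12*. *Ccr3* and *Cxcl12* reached the minimum only through the TG papillomas, with CTR means of 0.299 and 0.266 FPKM, so the count describes the tested members and is not support for a difference. With no minimum the count was also 5, but out of 59 members among 23122 genes, with *Ccr6* and *Cxcr6* in place of *Cxcl12* and *Cxcr7*. The share over all genes was not computed for that setting. In the other direction 0 members passed, against 1.96% of all tested genes. The 5 became 3 without CTR 3 and 8 without TG 1. For these fits too no share over all tested genes was computed, so the changes are not a result about the members. Differences on this scale understate the change of genes with low FPKM.

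**Figure D1:**
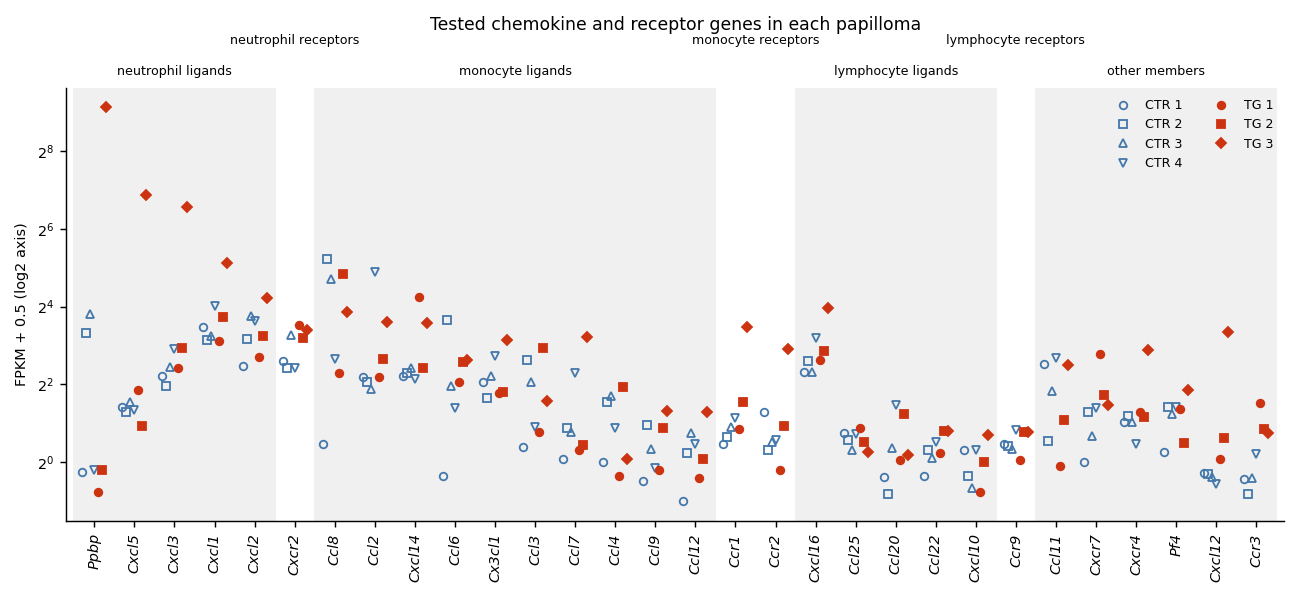
FPKM + 0.5 on a log2 axis for 30 of the 31 tested members, grouped by the leukocyte they mainly attract, with 1 point per papilloma (open blue symbols for the 4 CTR, filled red symbols for the 3 TG). TG 3, the red diamond, holds the highest value of 17 of the members plotted, and the gap to the other 6 papillomas is widest for *Ppbp*, *Cxcl5* and *Cxcl3*.

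Much of the upward shift was absent without TG 3. The mean was higher in TG for 28 of the 31 members with all papillomas, and for 16 of the 31 without TG 3. The median difference between TG and CTR over the members was 0.50 on the log2 scale, against 0.06 over all tested genes, and without TG 3 these medians were 0.11 and -0.03. The highest of the 7 values lay in TG 3 for 18 of the 31 members (58.1%), beside 41.1% of all tested genes. Members with every TG papilloma above every CTR papilloma numbered 3 (*Ccr3*, *Cxcl12* and *Cxcr7*), or 9.68% against a background of 4.93%. The reverse held for 0 members, against 2.23% of all tested genes. Since *Ccr3* and *Cxcl12* reached the minimum only through the TG papillomas, the count of 3 is not support for a difference either. With a minimum of 2 FPKM it was 1, *Cxcr7*. The 3 became 5 without CTR 2 or without CTR 3, 6 without TG 1 and 7 without TG 2. Leaving out a papilloma can only keep or raise such a count, for any genes. The share over all tested genes was not computed for these fits, so the rise is not a result about the members. Without TG 3 the 5 members named above were again the ones higher at an unadjusted p under 0.05, where the background was 5.2%, and *Ccl11* alone was lower, where it was 4.38%.

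**Figure D2:**
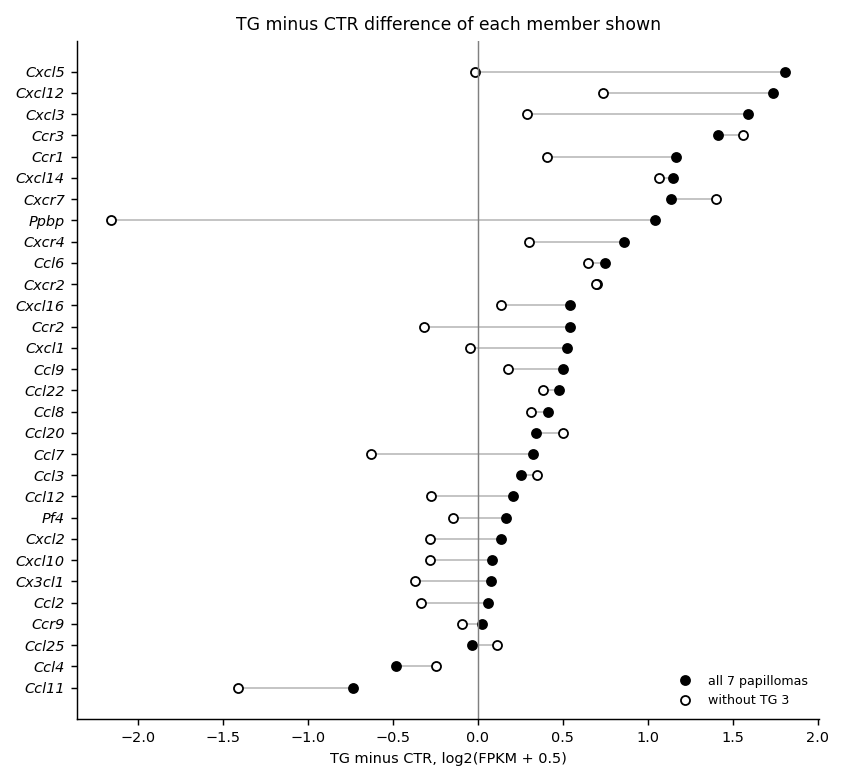
Difference of the mean log2(FPKM + 0.5), TG minus CTR, for the same 30 members, with all 7 papillomas (filled) and without TG 3 (open). *Ppbp* moved from 1.05 to -2.16 and *Cxcl5* from 1.81 to -0.02, while *Ccr3* moved from 1.41 to 1.56, *Cxcl14* from 1.15 to 1.06 and *Cxcr2* from 0.70 to 0.69.

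The highest value of any neutrophil-attracting ligand was that of *Ppbp* in TG 3. Its product is stored in platelet granules and is cut to a neutrophil attractant. *Ppbp* was at 0.344, 9.55, 13.4 and 0.374 FPKM in CTR 1 to CTR 4, at 0.0907 FPKM in TG 1, 0.364 FPKM in TG 2 and 558 FPKM in TG 3. The level in TG 3 was 41.5 times the next highest, with a Cufflinks interval of 546 to 569 FPKM that covers counting error only. TG 1 and TG 2 lay near or below the lower CTR papillomas, and CTR 2 and CTR 3 were well above both. TG minus CTR, the log2 difference was 1.05 (95% confidence interval -4.05 to 6.14, adjusted p = 0.968 from limma), and without TG 3 it was -2.16 with an adjusted p of 0.640. The 3 platelet markers summed to 0.895 FPKM in TG 3, within the 0.809 to 1.76 FPKM of the other 6 papillomas, and *Gp9* was at or near 0 in all. Most of the sum was *Itga2b*, which was lowest in TG 3 (0.675 FPKM). *Gp1ba* was at 0.148, 0.195 and 0.147 FPKM in TG 1 to TG 3 and at most 0.0679 FPKM in CTR papillomas. The part of platelets in the *Ppbp* level was not tested.

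*Cxcl5* and *Cxcl3*, which encode ligands of CXCR2, showed the same single high library. *Cxcl5* had 2.15, 1.94, 2.43 and 2.03 FPKM in CTR 1 to CTR 4, 3.08 FPKM in TG 1, 1.39 FPKM in TG 2 and 116 FPKM in TG 3. The CTR papillomas were tightly grouped, and the other two TG papillomas fell on either side of them. *Cxcl3* had 4.18, 3.37, 4.99 and 7.01 FPKM in the CTR papillomas, 4.88 and 7.10 FPKM in TG 1 and TG 2, and 94.3 FPKM in TG 3. The log2 difference was 1.81 for *Cxcl5* (SE 1.17, adjusted p = 0.839 from limma) and 1.59 for *Cxcl3* (SE 0.85, adjusted p = 0.813 from limma), and -0.02 and 0.29 without TG 3. Both genes are in the list that the study drew from these same papillomas, so their direction is not independent of that choice. That list gives genes the study called higher in TG with Cufflinks, another method, at a false discovery rate under 0.05.

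*Cxcl1* and *Cxcl2*, the neutrophil attractants with the motif-bearing promoters shown above next to that of *Cxcl3*, differed less. *Cxcl1* was at 10.5, 8.35, 8.99 and 15.7 FPKM in CTR papillomas and at 8.16, 12.8 and 34.5 FPKM in TG 1 to TG 3. *Cxcl2* was at 5.03, 8.53, 13.0 and 11.9 FPKM in CTR and at 6.06, 8.91 and 18.2 FPKM in TG papillomas. For each, TG 1 and TG 2 lay within the CTR range except that TG 1 was just below it for *Cxcl1*, and TG 3 was highest. The log2 difference of *Cxcl1* was 0.52 (95% confidence interval -0.46 to 1.51) and that of *Cxcl2* was 0.14 (-0.78 to 1.05), with adjusted p of 0.866 and 0.981 from limma. Without TG 3 they were -0.04 and -0.28. All 5 tested neutrophil-attracting ligands were highest in TG 3. Their median difference was 1.05, against 0.06 over all tested genes, and was -0.04 without TG 3. *Cxcl15*, the remaining member of this class, did not exceed 0.0329 FPKM.

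**Figure D3:**
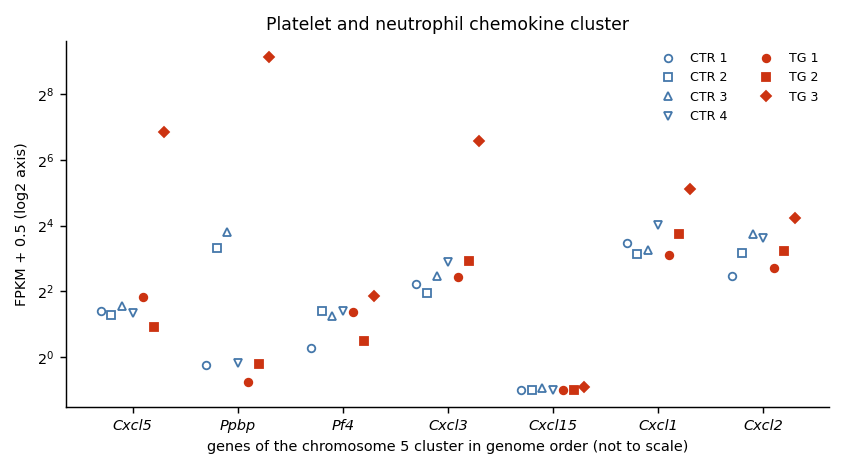
FPKM + 0.5 on a log2 axis for the 7 chemokine genes of the chromosome 5 cluster in genome order, not to scale, with 1 point per papilloma. TG 3 is the highest point for *Cxcl5* (116 FPKM), *Ppbp* (558 FPKM) and *Cxcl3* (94.3 FPKM), whereas *Pf4*, between *Ppbp* and *Cxcl3*, has 3.13 FPKM in TG 3.

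The TG 3 excess was unequal along the cluster. *Pf4*, which encodes platelet factor 4 and lies between *Ppbp* and *Cxcl3*, had 0.704, 2.14, 1.86 and 2.15 FPKM in CTR papillomas and 2.09, 0.909 and 3.13 FPKM in TG 1 to TG 3. Its TG 3 value was 1.46 times the next highest, while the corresponding ratio was 37.5 for *Cxcl5*, 13.3 for *Cxcl3*, 2.20 for *Cxcl1* and 1.40 for *Cxcl2*. The groups overlapped for *Pf4* (log2 difference 0.16, adjusted p = 0.971 from limma, and -0.15 without TG 3).

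Summed over all ligands, the chemokine level was 51.1 to 116 FPKM in the other 6 papillomas and 929 FPKM in TG 3. Neutrophil-attracting ligands made up 88.4% of the TG 3 sum and 27.3% to 43.5% elsewhere. Without *Ppbp* their sum was 263 FPKM in TG 3 and 21.9 to 36.6 FPKM in the others. Monocyte-attracting ligands did not follow, with 67.0 FPKM in TG 3 inside the 15.2 to 71.3 FPKM of the other 6 papillomas. Of 9 neutrophil markers 8 were found, and they summed to 43.1 FPKM in TG 3 against 0.619 to 1.40 FPKM elsewhere. In TG 3, 6 of the 8 had their highest value, led by *Csf3r* (17.0 FPKM) and *Retnlg* (14.0 FPKM). These 6 included *Mmp8*, at 0.960 FPKM in TG 3 and at most 0.114 FPKM elsewhere, and *Ngp*, at 0.152 FPKM in TG 3 and 0 elsewhere. *Camp* and *Elane*, genes of granule proteins made in immature neutrophils, were at 0 in TG 3. They were near 0 in the other papillomas too, at no more than 0.0894 and 0.0820 FPKM. The part of these cells in the ligand levels was not tested. In bulk tissue, fewer cells of a type and less RNA per cell cannot be told apart.

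**Figure D4:**
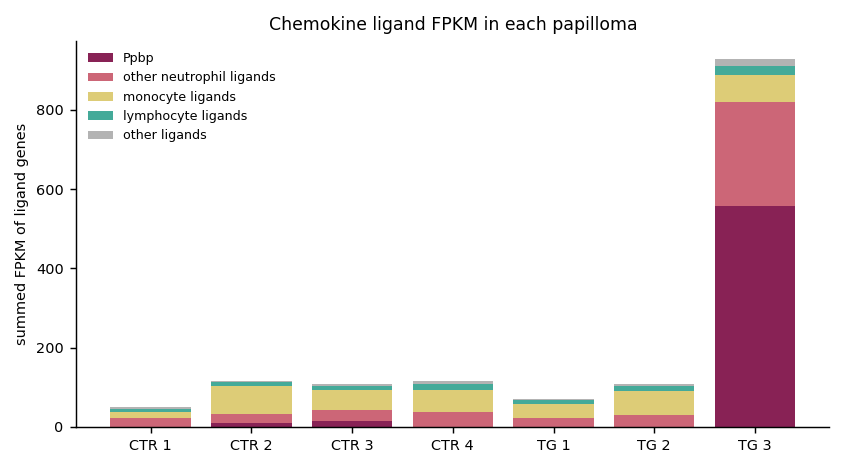
Summed FPKM of the chemokine ligand genes in each papilloma, stacked by the leukocyte mainly attracted, with *Ppbp* drawn apart from the other neutrophil ligands. The sum is 929 FPKM in TG 3 and between 51.1 and 116 FPKM in the other 6 papillomas, where monocyte ligands hold 29.8% to 61.4%.

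The main receptor for these ligands gave another pattern. *Cxcr2*, expressed by neutrophils and also described on keratinocytes, lies on chromosome 1 from 74153994 to 74161246. It was at 5.51, 4.84, 9.16 and 4.84 FPKM in CTR 1 to CTR 4 and at 11.1, 8.71 and 9.99 FPKM in TG 1 to TG 3. Of the 12 ways to pair a TG with a CTR papilloma, 11 had the higher value in TG, with CTR 3 above TG 2 as the exception. TG 3 did not stand out, although the neutrophil markers did. Its log2 difference was 0.70 (SE 0.23, unadjusted p = 0.0155 and adjusted p = 0.686 from limma, 2-sided exact permutation p = 0.0857) and 0.69 without TG 3. *Cxcr1*, the neighbouring gene and a second neutrophil receptor, was below the minimum, with 0.894 FPKM in TG 3 from about 13 reads and at most 0.229 FPKM elsewhere.

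*Ccr3* had the smallest p-value of the 31 tested members. CCR3 is the receptor for eotaxins and is known from eosinophils. The gene lies on chromosome 9 from 124021971 to 124031689. It was at 0.237, 0.0616, 0.252 and 0.647 FPKM in CTR 1 to CTR 4 and at 2.39, 1.31 and 1.17 FPKM in TG 1 to TG 3. The groups did not overlap, and TG 1, not TG 3, was the highest. These values stood for about 5 to 40 reads in CTR and 65.9 to 203 reads in TG papillomas. The log2 difference was 1.41 (SE 0.32, unadjusted p = 0.0017 and adjusted p = 0.538 from limma), with an exact permutation p of 0.0286, the smallest that 35 groupings allow. Without TG 3 it was 1.56 with an adjusted p of 0.1197. Of the eosinophil markers, *Epx* was at 0 in all 7 papillomas and *Prg2* was at 0 in all but CTR 2, where it had 0.0561 FPKM. *Siglec5* was at 0.137, 0, 0.0166 and 0.0238 FPKM in CTR 1 to CTR 4 and at 0, 0 and 0.150 FPKM in TG 1 to TG 3. The 6 eosinophil and mast cell genes found summed to 6.34 FPKM in TG 3 and 1.70 to 4.33 FPKM elsewhere. Most of the TG 3 sum came from the mast cell genes *Cpa3* (2.07 FPKM), *Mcpt4* (3.30 FPKM) and *Tpsb2* (0.822 FPKM). The part of these cells in the *Ccr3* level was not tested.

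**Figure D5:**
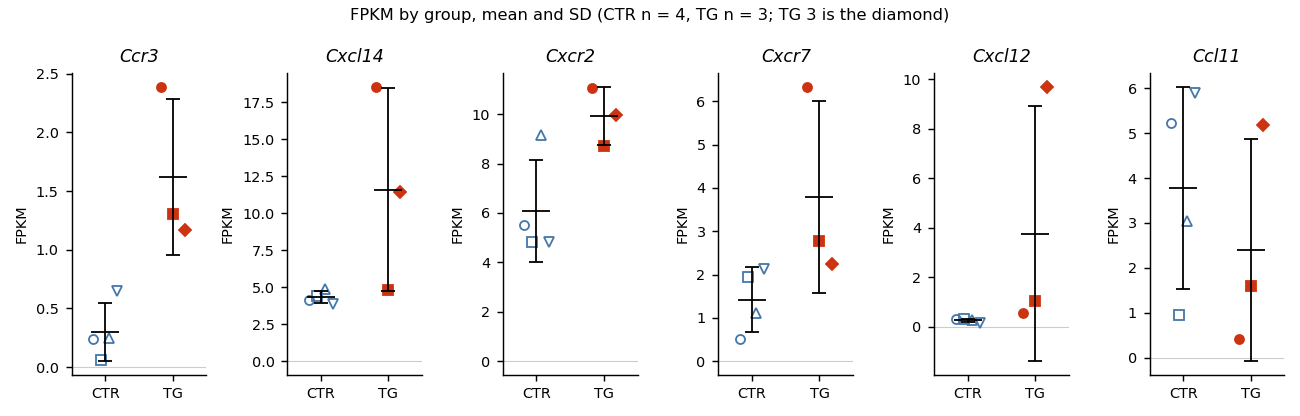
FPKM in each papilloma of the 5 members higher in TG at an unadjusted p under 0.05 and of *Ccl11*, lower at that threshold only without TG 3, each on its own linear axis. Horizontal lines give the mean and vertical bars the SD of 4 CTR and 3 TG papillomas, and the diamond is TG 3. For *Ccr3*, *Cxcr7* and *Cxcl12* every TG point lies above every CTR point.

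*Cxcl14*, which encodes a chemokine made constitutively in epithelia, was even in CTR papillomas and uneven in TG papillomas. Its levels were 4.14, 4.43, 4.85 and 3.89 FPKM in CTR 1 to CTR 4 and 18.5, 4.83 and 11.4 FPKM in TG 1 to TG 3. TG 2 lay just below CTR 3, the highest CTR papilloma, and TG 1 and TG 3 were well above. The group means were 4.33 ± 0.411 FPKM (SD, n = 4) and 11.6 ± 6.85 FPKM (SD, n = 3). On the log2 scale the difference was 1.15 (SE 0.37, unadjusted p = 0.0129 and adjusted p = 0.653 from limma, exact permutation p = 0.0571) and 1.06 without TG 3.

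CXCL12, a ligand made largely by stromal cells, acts on CXCR4 and is scavenged by CXCR7, a receptor also called ACKR3. *Cxcl12* was at 0.316, 0.308, 0.265 and 0.175 FPKM in CTR 1 to CTR 4, and at 0.564, 1.02 and 9.70 FPKM in TG 1 to TG 3. The groups did not overlap, and TG 3 was 9.46 times the next highest. For *Cxcl12* the log2 difference was 1.74 (SE 0.67, adjusted p = 0.702 from limma, exact permutation p = 0.0286) and fell to 0.74 without TG 3. The fibroblast markers given above were high in the same library, and their part in the *Cxcl12* level was not tested. *Cxcl12* too is in the list that the study drew from these papillomas. By qRT-PCR the study also reports it as higher in TG papillomas and TG squamous cell carcinomas than in CTR papillomas.

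The 2 receptors of CXCL12 differed in which TG papilloma was highest. *Cxcr7* (chromosome 1, from 90204003 to 90216288) was at 0.504, 1.94, 1.10 and 2.13 FPKM in CTR papillomas and at 6.34, 2.78 and 2.24 FPKM in TG 1 to TG 3. All 12 pairs were higher in TG, although TG 3 exceeded CTR 4 only narrowly. Its log2 difference was 1.14 (SE 0.42, adjusted p = 0.689 from limma, exact permutation p = 0.0571) and 1.40 without TG 3. The groups overlapped for *Cxcr7* under upper-quartile scaling and quantile normalization. With the latter the unadjusted p was no longer under 0.05, which left 4 members higher, a count without a computed share over all tested genes. *Cxcr4* was at 1.55, 1.76, 1.53 and 0.874 FPKM in CTR and at 1.94, 1.74 and 6.91 FPKM in TG papillomas, with TG 2 inside the CTR range. Its log2 difference was 0.86 (SE 0.41, adjusted p = 0.782 from limma) and 0.30 without TG 3.

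Several monocyte-attracting ligands varied widely between papillomas of 1 group. *Ccl8*, whose product attracts monocytes and is typical of tissue macrophages, was at 0.874, 36.8, 25.8 and 5.73 FPKM in CTR 1 to CTR 4 and at 4.41, 28.3 and 14.1 FPKM in TG 1 to TG 3. The highest CTR value was 42.1 times the lowest, and the groups overlapped throughout. On the log2 scale the groups differed by 0.41 (95% confidence interval -2.05 to 2.87, adjusted p = 0.978 from limma), or by 0.31 without TG 3. The ratio of the highest to the lowest CTR papilloma was 44.1 for *Ccl6*, 6.98 for *Ccl3* and 5.45 for *Ccl4*, all ligands of monocyte receptors, but 1.25 for *Cxcl14* and 2.32 for *Cx3cl1*. CTR 2 and CTR 3 were the higher CTR papillomas for *Ccl8*, *Ccl6*, *Ccl3*, *Ccl4* and *Ppbp*, a pattern picked out after the values were seen.

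*Ccl2*, the main ligand of CCR2 and an attractant of inflammatory monocytes, had 1 high CTR papilloma. It was at 4.07, 3.64, 3.19 and 29.1 FPKM in CTR 1 to CTR 4 and at 4.04, 5.78 and 11.6 FPKM in TG 1 to TG 3. CTR 4 was above every TG papilloma, and the other CTR papillomas were close to TG 1. The group difference was 0.06 on the log2 scale (95% confidence interval -1.53 to 1.65, adjusted p = 0.995 from limma), and -0.34 without TG 3. *Ccl7*, its neighbour on chromosome 11 and also a CCR2 ligand, was highest in the same 2 papillomas, with 4.38 FPKM in CTR 4 and 8.82 FPKM in TG 3 against 0.546 to 1.32 FPKM in the others. Over the 10 tested monocyte-attracting ligands 1, *Cxcl14*, had an unadjusted p under 0.05, and the median difference was 0.29, or -0.03 without TG 3.

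The monocyte receptors *Ccr1* and *Ccr2* were highest in TG 3. *Ccr1*, a receptor for several inflammatory CC ligands, was at 0.887, 1.05, 1.37 and 1.68 FPKM in CTR papillomas and at 1.29, 2.43 and 10.5 FPKM in TG 1 to TG 3. *Ccr2*, the receptor that draws monocytes to CCL2, was at 1.93, 0.734, 0.916 and 0.993 FPKM in CTR and at 0.362, 1.39 and 7.05 FPKM in TG papillomas. TG 1 was the lowest of all 7 papillomas for *Ccr2* and TG 3 the highest. The log2 difference was 1.17 for *Ccr1* (SE 0.54, adjusted p = 0.760 from limma) and 0.54 for *Ccr2* (SE 0.63, adjusted p = 0.928 from limma), and without TG 3 they were 0.41 and -0.31. The 11 monocyte and macrophage markers found summed to 312 FPKM in TG 3 and to 76.6 to 192 FPKM elsewhere, with 9 of them highest in TG 3. Their part in the receptor levels was not tested.

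*Ccr1*, *Ccr2* and *Ccr3* lie within 1 cluster on chromosome 9, with *Ccr9*, *Cxcr6* and *Xcr1*. *Ccr1*, *Ccr2*, *Cxcr6* and *Xcr1* were highest in TG 3, as were 41.1% of all tested genes, whereas *Ccr3* was highest in TG 1 and *Ccr9* in CTR 4. Of these, *Cxcr6* and *Xcr1* were below the minimum of the test. Whether position goes with a shared pattern was not tested. *Ccr9*, a receptor of gut-homing lymphocytes, was at 0.884, 0.824, 0.760 and 1.28 FPKM in CTR and at 0.543, 1.21 and 1.20 FPKM in TG papillomas, with a log2 difference of 0.02 (95% confidence interval -0.57 to 0.62, adjusted p = 0.995 from limma) and of -0.0911 without TG 3.

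Among lymphocyte-attracting ligands, *Cxcl16*, a membrane-bound ligand of CXCR6, was the most abundant. Its levels were 4.49, 5.59, 4.50 and 8.61 FPKM in CTR 1 to CTR 4 and 5.66, 6.78 and 15.1 FPKM in TG 1 to TG 3, with TG 1 and TG 2 inside the CTR range. The log2 difference was 0.54 (SE 0.35, adjusted p = 0.839 from limma) and 0.13 without TG 3. *Ccl25*, a ligand of CCR9, was at 0.737 to 1.17 FPKM in CTR and at 0.695 to 1.33 FPKM in TG papillomas, with a log2 difference of -0.03, or 0.11 without TG 3. *Ccl20*, *Ccl22* and *Cxcl10*, the other 3 tested ligands of this class, had differences of 0.34, 0.48 and 0.08, and of 0.50, 0.38 and -0.28 without TG 3. None of the 5 had an unadjusted p under 0.05, and 17 ligands of this class together reached 23.1 FPKM in TG 3 and 7.38 to 14.7 FPKM elsewhere. The 12 T and NK cell markers summed to 4.85 FPKM in TG 3 and to 1.84 to 4.39 FPKM elsewhere, and *Ncr1* was at 0 in all papillomas.

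*Ccl11*, which encodes the eotaxin that acts on CCR3, was the member with the lowest difference. Its levels were 5.23, 0.947, 3.05 and 5.90 FPKM in CTR 1 to CTR 4 and 0.424, 1.60 and 5.17 FPKM in TG 1 to TG 3. TG 1 was below every CTR papilloma and TG 3 was among the higher values, so the order of the TG papillomas for *Ccl11* was the reverse of that for *Ccr3*. Its log2 difference was -0.74 (SE 0.66, adjusted p = 0.887 from limma) and -1.41 without TG 3 (unadjusted p = 0.0451, adjusted p = 0.499).

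Of the 28 members below the minimum, 24 had a value above 0 in at least 1 papilloma, and 12 of these were highest in TG 3. *Ccl21b*, *Ccl21c*, *Ccl26* and *Ccl27b* were listed at 0 in all papillomas. The *Ccl21* and *Ccl27* genes have near-identical copies, between which short reads cannot be assigned with certainty. The highest single value in this group was 2.26 FPKM, for *Ccl19*, a ligand of CCR7, in TG 3, from about 23 reads. *Ccr7*, the receptor that brings dendritic cells and naive T cells to lymph nodes, was at 0.181 to 0.617 FPKM in CTR and at 0.397, 0.443 and 0.836 FPKM in TG papillomas. *Cxcr6* and *Ccr6*, singled out after their values were seen, were higher in every TG than in every CTR papilloma. *Cxcr6* was at 0.0618 to 0.319 FPKM in CTR and at 0.446, 0.418 and 0.782 FPKM in TG papillomas, from 24 reads or fewer in each. *Ccr6* rested on under 8 reads in each papilloma.

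Other genes of the pathway were read from the same fit. Among 15 inducers and regulators of chemokine transcription, 12 were tested, and 0 passed after adjustment. Before adjustment 2 were higher in TG papillomas with a p under 0.05 and 0 were lower, where the background was 4.86% and 1.96% of all tested genes. One of the 2 was *Il1a* (log2 difference 1.71, adjusted p = 0.633 from limma, and 1.11 without TG 3). *Il1a*, a keratinocyte alarm cytokine, was at 3.94, 3.12, 8.88 and 8.41 FPKM in CTR and at 9.53, 16.5 and 44.9 FPKM in TG papillomas. *Il1b*, a cytokine of activated myeloid cells that induces CXCR2 ligands, was at 71.9 FPKM in TG 3 and at 2.67 to 7.06 FPKM in the other 6, with a log2 difference of 1.18 that was -0.14 without TG 3. *Nfkb1*, *Nfkb2*, *Rela* and *Relb*, subunits of the factor that binds the κB motif, differed by 0.28 to 0.43 on the log2 scale with adjusted p of at least 0.826. Of 15 tested genes of receptor signalling, 1 was higher at an unadjusted p under 0.05 (*Arrb1*, an arrestin that ends receptor signalling, 0.77, adjusted p = 0.687 from limma, and 0.69 without TG 3), and 0 were lower, beside the same background. Of the atypical receptors, which bind chemokines without signalling for migration, 2 were tested (*Ccrl2* and *Darc*) and neither passed, with 2.26 and 1.65 FPKM in TG 3 as their highest values.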

How the data were processed

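RNA was sequenced from papillomas of 4 CTR and 3 TG mice as stranded polyA+ libraries with single reads of 40 bases. The authors deposited FPKM values per gene with lower and upper bounds and a status, made separately for each papilloma with TopHat2 2.0.4 (Bowtie 0.12.7) on GRCm38/mm10 and Cufflinks 1.3.0. No scaling between libraries beyond FPKM is stated. The files hold no counts, and reads behind a value were approximated from the width of its bounds, which cover counting error only.

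Entries of 1 symbol were summed, and symbols with a failed estimate in any papilloma were left out. limma 3.58.1 (R 4.3.3) with a mean-variance trend was fitted to log2(FPKM + 0.5) for the 12299 symbols with a mean of at least 0.5 FPKM. All p-values are 2-sided, with Benjamini-Hochberg adjustment over these symbols. For single members, group means were compared over all 35 groupings (exact permutation test, smallest p 0.0286). The mice are separate animals, and 20 alternatives were tried, given in the closing section.

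Members, classes and lists were chosen with earlier results of these data known. Members were named with values if their mean was at least 5 FPKM, their unadjusted p was under 0.05, the groups did not overlap, the study's text or gene list names them (*Cxcl3*, *Cxcl5*, *Cxcl12*), or they were among the most abundant ligands or receptors of their class. Others named were chosen after their values were seen. Of the marker lists not given in the report, the 4 endothelial genes summed to 20.0 FPKM in TG 3 and at most 11.4 FPKM elsewhere, the 6 dendritic and Langerhans cell genes to 8.28 and at most 3.79, the 5 B cell genes to 0.725 and at most 0.527, and the 4 adipocyte genes to 1685 and at most 3228. *Fabp4* carries that last sum, while *Adipoq* (3.34 FPKM), *Plin1* (0.824 FPKM) and *Cidec* (1.30 FPKM) were highest in TG 3 and at or near 0 elsewhere. A tested member and a gene of the pathway lists were counted but are not reported here on their own. Gene positions are those of the files. A planned search of protein sequences was not run.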

Additional observations from a re-analysis of the deposited data

Results flagged for a closer look

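In the 4 CTR papillomas, 1 value stood far from the others for 2 of the 31 tested members, where chance alone flags about 1 in 20 groups. For *Ccl2* it was CTR 4, at 29.1 FPKM against 3.19 to 4.07 FPKM in the other CTR papillomas. Its gap to the nearest value was 0.896 of the range of the 4 papillomas on the log2 scale, above Dixon's critical value for 4 samples. For *Pf4* it was CTR 1, at 0.704 FPKM against 1.86 to 2.15 FPKM, with a ratio of 0.856. The cause of either was not tested. This rule was applied to the CTR papillomas only, so TG 3 was not examined by it.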

How the results depend on the processing

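Under all 20 alternatives 0 members were higher and 0 lower after adjustment, although array quality weights called 49 genes higher and 36 lower over the whole table (smallest adjusted p of a member 0.0695, for *Ccr3*). The count of members higher at an unadjusted p under 0.05, which was 5, was 3 with a minimum of 2 FPKM and 7 with array quality weights. With 1 papilloma left out it was 3 to 8 (3 without CTR 3, 8 without TG 1). The count lower was 1 with array quality weights and 0 to 1 with 1 papilloma left out (*Ccl4* without TG 2, *Ccl11* without TG 3). Apart from the fit without TG 3, no share over all tested genes was computed beside these counts. They are therefore not read as results about the members. Members with every TG above every CTR papilloma, 3 in the report, numbered 5 with no minimum (of 59 members), 1 with a minimum of 2 FPKM, 8 in the 3 CTR and 2 TG papillomas of lower depth and 3 to 7 with 1 papilloma left out (5 without CTR 2 or CTR 3, 6 without TG 1, 7 without TG 2), and 1 was below in those of lower depth. Fewer papillomas can only keep or raise these counts, for any genes. The share over all tested genes was not computed for them, so they are not read as a depth effect. The median difference of 0.50 became 0.26 with no minimum, 0.24 with array quality weights, 0.78 at lower depth and 0.11 to 0.75 with 1 papilloma left out, the lowest without TG 3. The replicate numbers did not pair the papillomas (correlations of same-numbered papillomas -0.186, 0.0431 and -0.146). With the replicate block 6 members were higher and 0 lower at an unadjusted p under 0.05, of which 4 were among the 5. Here too no share over all tested genes was computed. Upper-quartile scaling and quantile normalization moved the median of all genes from 0.06 to 0.00245 and -0.03.

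Of 30 members examined singly, the sign of 17 changed under some alternative, and the other 13 kept theirs. It changed with array quality weights for *Ccl12* (-0.15), *Ccl2* (-0.59), *Ccl4* (0.46), *Ccl7* (-0.69), *Cx3cl1* (-0.44), *Cxcl10* (-0.0218), *Cxcl2* (-0.17), *Pf4* (-0.43) and *Ppbp* (-0.94), with quantile normalization for *Ccl2* (-0.0297), *Ccr9* (-0.16), *Cx3cl1* (-0.00718), *Cxcl10* (-0.0410) and *Pf4* (-0.0142), with upper-quartile scaling for *Ccl2* (-0.00215) and *Ccr9* (-0.0217), with the block for *Ccl25* (0.0131) and at lower depth for *Ccl4* (0.20). With 1 papilloma left out the differences ranged from -0.28 to 0.57 for *Ccl12*, -0.34 to 0.77 for *Ccl2*, -0.0338 to 0.78 for *Ccl20*, -0.19 to 0.11 for *Ccl25*, -0.33 to 0.75 for *Ccl3*, -0.63 to 0.83 for *Ccl7*, -0.52 to 1.10 for *Ccl8*, -0.31 to 1.25 for *Ccr2*, -0.0993 to 0.26 for *Ccr9*, -0.37 to 0.31 for *Cx3cl1*, -0.0440 to 0.96 for *Cxcl1*, -0.28 to 0.46 for *Cxcl10*, -0.28 to 0.48 for *Cxcl2*, -0.0169 to 2.95 for *Cxcl5*, -0.15 to 0.54 for *Pf4* and -2.16 to 2.78 for *Ppbp*. Causes were not tested.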

Other observations

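*Ccl27a*, a keratinocyte chemokine that draws skin-homing T cells, was left out of the comparison because its estimate failed in CTR 1, CTR 2, CTR 4 and TG 3. Where it was estimated, it was at 0.298 FPKM in CTR 3, 0.997 FPKM in TG 1 and 0.669 FPKM in TG 2. *Cxcl13*, a B cell attractant below the minimum of the test, had 0.730 FPKM in TG 3 from about 14 reads and at most 0.0541 FPKM, about 1 read, in each of the other 6 papillomas.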
